A study of Mus musculus with 10 samples.

Results

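The 10 genes described here are the MYC, MXD and MLX family genes of the mouse: Myc, Mycn, Mycl, Mxd1, Mxd3, Mxd4, Mxi1, Mnt, Mlx and Mlxip. They were taken by name as the listed genes of the MYC and MAX dimer network without Max and Mga, through the GENCODE M21 symbols of the Ensembl identifiers, and they are 10 of the 30460 genes in the deposited tables. RNA of embryonic stem cells was sequenced in 10 libraries: 3 labelled Mga-/-, 2 labelled L3mbtl2-/-, 2 labelled Pcgf6-/- and 3 wild type. All 4 groups were of the C57BL/6 strain, and no treatment is given for any of them. How the deletions were made, how many clones each group stands for and whether feeder cells were present are not given in the sources used here. Nothing in the labels says that the replicates came from separate cultures, so the p-values here cover just the spread among these libraries, and that spread may be technical.

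MYC proteins pair with MAX on DNA motifs called E-boxes and activate genes of growth and ribosome production. The MXD proteins, MXI1 and MNT pair with MAX at the same motifs and bring the SIN3 and histone deacetylase corepressor, so that the family is usually pictured as activators and repressors that share 1 partner. MLX pairs with MNT and some MXD proteins and also with MLXIP, also called MondoA, which activates genes in response to glucose metabolites. MGA is the MAX partner that also carries a T-box domain, and with L3MBTL2 and PCGF6 it belongs to the Polycomb complex PRC1.6. Mouse embryonic stem cells are known to express both Myc and Mycn.

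Depth, worked out from the steps of the values, was between 19370097 and 26726692 reads per library. The stem cell label fitted its markers: all 10 markers on the list, among them Pou5f1 and Sox2, were at or above 0.5 FPKM (fragments scaled to exon length and library size) in every library. L3mbtl2 averaged 3.61 ± 0.16 FPKM in L3mbtl2-/- libraries (SD, n = 2), against 20.2 ± 0.38 FPKM in wild type (SD, n = 3), and Pcgf6 averaged 9.69 ± 0.18 FPKM in Pcgf6-/- libraries (SD, n = 2), against 28.9 ± 1.13 FPKM in wild type (SD, n = 3). The 3 Mga knockout libraries had 8.03, 19.6 and 11.2 FPKM of Mga, against 19.7, 18.6 and 17.1 FPKM in wild type. The library labelled Mga knockout replicate 2 was therefore within the wild type range for its targeted gene, although a level over the whole gene does not test a deletion of some exons. The Mga-/- libraries also differed more among themselves than the others did, with a median within-group SD over all tested genes of 0.34 on the log2 scale, against 0.06 in L3mbtl2-/-, 0.07 in Pcgf6-/- and 0.09 in wild type libraries. Replicate 1 of this group had a summed fibroblast marker level of 509.6 FPKM, against 156.3 and 174.3 FPKM in replicates 2 and 3 and 104 to 162.2 FPKM in all 7 other libraries. Results of the Mga-/- group that rest on replicate 1 or 2 are therefore given with and without that library.

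All 10 genes passed the filter on low values, and their levels spanned about 2 orders of magnitude on the FPKM scale, which is per length of exon. Mycn was the highest in wild type with a mean of 83.1 FPKM, followed by Mlx at 30.3, Myc at 27.9 and Mnt at 24.9 FPKM. Mlxip, Mycl, Mxi1 and Mxd3 lay between 7.11 and 3.76 FPKM, and Mxd1 and Mxd4 were the lowest at 0.97 and 0.46 FPKM. The fewest reads behind a value were 80, for Mxd4 in a Pcgf6-/- library, and the most were 7465, for Mycn in a wild type library. In L3mbtl2-/- libraries the order at the top was another one, with Myc first at 45 FPKM, then Mlx at 29.5 FPKM and Mycn at 23.0 FPKM. In Mga-/- and Pcgf6-/- libraries Mycn stayed first and Mlx second.

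**Figure D1:**
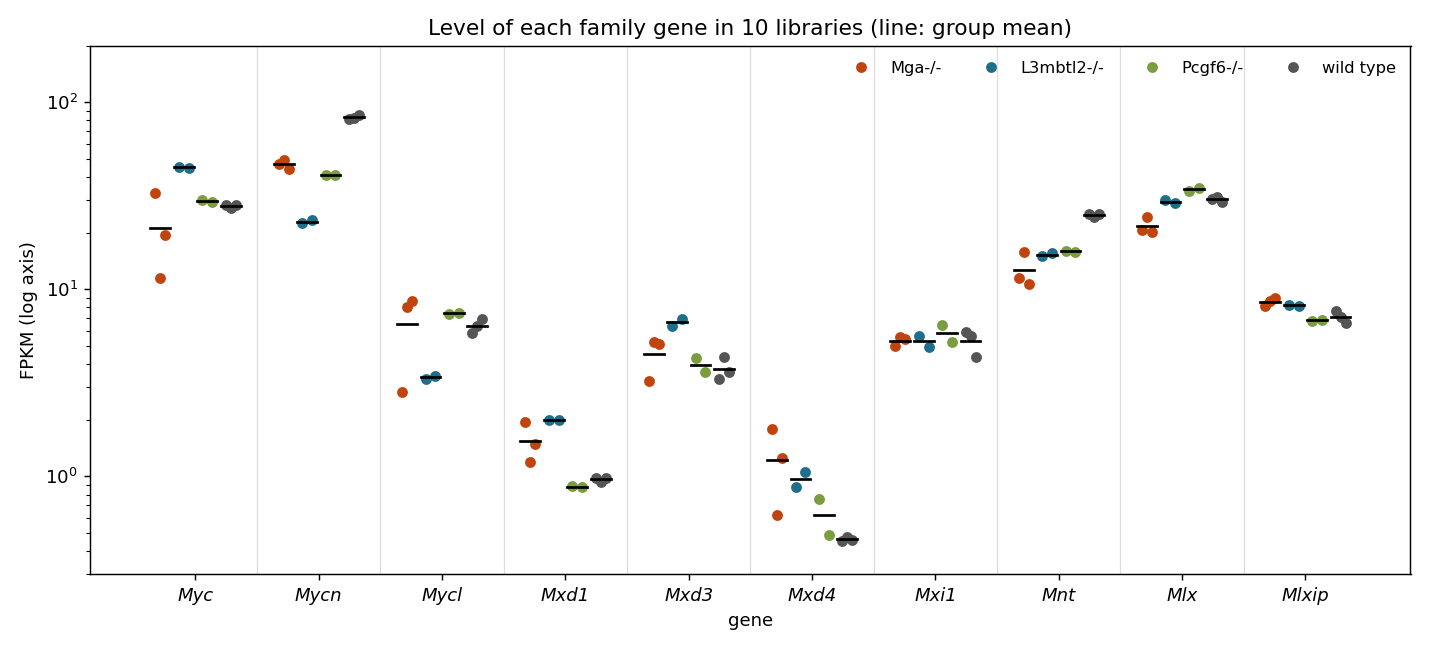
FPKM of each family gene (log axis) in every library, coloured by genotype in the order Mga-/-, L3mbtl2-/-, Pcgf6-/- and wild type, with a line at each group mean. Mycn and Mnt were below every wild type library in all 7 knockout libraries, and the 3 Mga-/- libraries lay far apart for Myc, Mycl and Mxd4.

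Each knockout was compared with wild type by limma on log2(FPKM + 0.1), and a gene was called when its Benjamini-Hochberg adjusted p over all 15731 tested genes was under 0.05. In Mga-/- libraries 6 of the 10 family genes were called, 3 higher and 3 lower, while 39.5% of all tested genes were called, 22.8% higher and 16.7% lower. In L3mbtl2-/- libraries 4 of the 10 were called, 2 higher and 2 lower, against a background of 40.0%, with 23.4% higher and 16.7% lower. In Pcgf6-/- libraries 2 of the 10 were called, both lower, against a background of 10.1%, with 5.45% higher and 4.62% lower. The count in L3mbtl2-/- cells was thus at the background, and all counts are over 10 genes only. The 3 genes called higher in Mga-/- libraries include Mxd4, which passed the filter on low values only through knockout libraries.

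Groups of 2 and 3 libraries often do not overlap, so this too was read against all tested genes. In Mga-/- libraries 3 family genes lay wholly above wild type and 3 wholly below, against 28.3% and 20.5% of all tested genes. In L3mbtl2-/- libraries the numbers were 5 above and 3 below (background 46.7% and 32.8%), and in Pcgf6-/- libraries 4 above and 3 below (background 36.2% and 29.2%). Mxd4 is among the genes above in each knockout, and its place there was partly built in by the filter. Without Mga-/- replicate 1 the limma calls were 8, 7 and 2 of 10 in Mga-/-, L3mbtl2-/- and Pcgf6-/- cells, while 44.8%, 52.6% and 22.7% of all tested genes were called. Without replicate 2 they were 6, 6 and 3, against 55.1%, 54.2% and 25.2%. With only the 2 groups compared in each fit they were 3, 8 and 3, against 25.4%, 67.3% and 43.7%. The median log2 fold change of the 10 genes was -0.06 in Mga-/-, 0.10 in L3mbtl2-/- and 0.08 in Pcgf6-/- libraries, and that of all tested genes was 0.10, 0.13 and 0.04 in the same order. The 3 comparisons use the same wild type libraries, so their values are set side by side below and are not independent of each other.

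**Figure D2:**
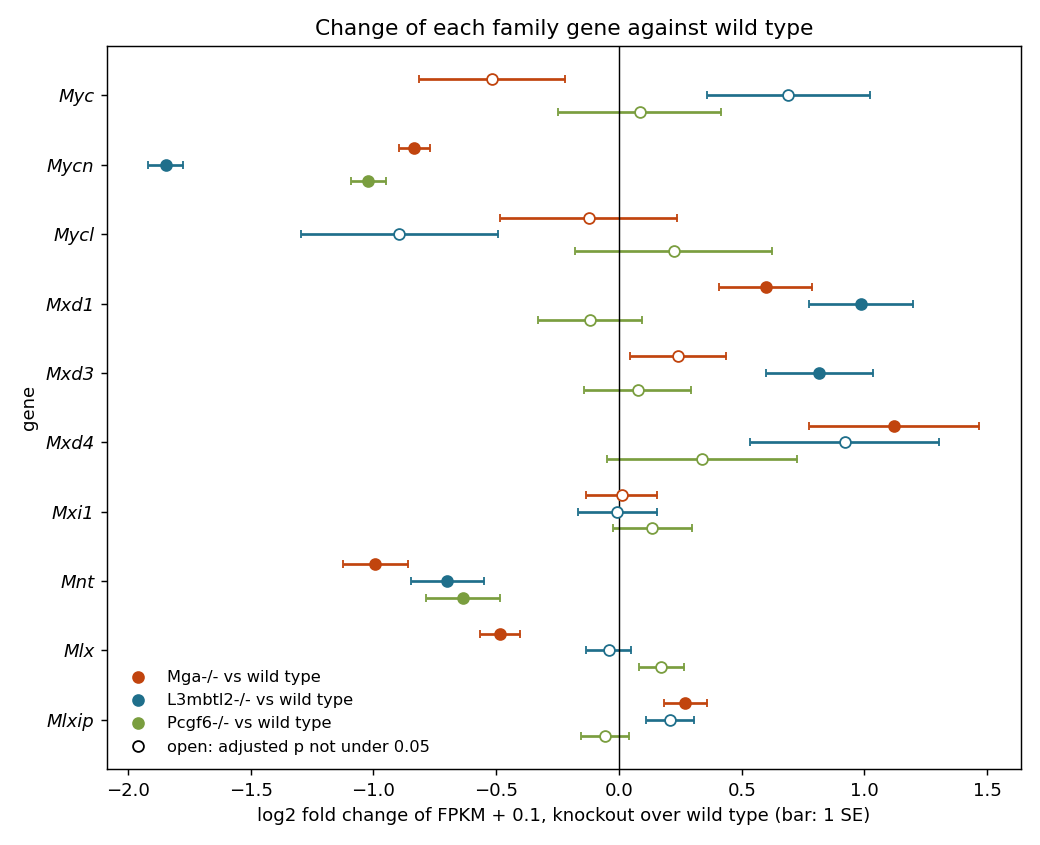
Log2 fold change of FPKM + 0.1 of each family gene, knockout over wild type, for Mga-/- (top of each trio), L3mbtl2-/- and Pcgf6-/-, with bars of 1 SE. Filled points passed an adjusted p of 0.05: Mycn and Mnt lie left of 0 in all 3 comparisons, and the L3mbtl2-/- point of Mycn, at -1.85, is the farthest from 0.

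Mycn, the MYC gene best known from neural and embryonic tissues, fell in each of the 3 knockouts. It was at 46.6, 49.3 and 43.9 FPKM in Mga-/- libraries, at 22.7 and 23.4 FPKM in L3mbtl2-/- libraries and at 41.1 and 40.7 FPKM in Pcgf6-/- libraries, against 81.6, 82.4 and 85.2 FPKM in wild type. No knockout library reached the lowest wild type value, and each of the 4 groups kept a narrow range. The group means were 56.1%, 27.7% and 49.2% of the wild type mean in the order given. The log2 fold change was -0.83 ± 0.06 (SE, limma adjusted p = 5.7e-05) in Mga-/-, -1.85 ± 0.07 (adjusted p = 2.2e-06) in L3mbtl2-/- and -1.02 ± 0.07 (adjusted p = 0.00021) in Pcgf6-/- cells. The call was kept in all 3 comparisons without any 1 of the 10 libraries, the highest adjusted p then being 0.0084. As the RNA is from bulk cultures, fewer cells that express a gene and less of its RNA per cell cannot be told apart, here and for every gene below.

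Myc itself, the founding member, did not pass the test in any comparison with wild type. Its levels were 32.6, 11.6 and 19.5 FPKM in Mga-/- libraries, 45.3 and 44.8 FPKM in L3mbtl2-/- libraries and 29.9 and 29.3 FPKM in Pcgf6-/- libraries, against 28.2, 27.4 and 28.1 FPKM in wild type. The Mga-/- libraries lay on both sides of the wild type range, whereas both L3mbtl2-/- libraries were above every other library. The log2 fold change was -0.52 ± 0.30 (limma adjusted p = 0.20) in Mga-/-, 0.69 ± 0.33 (adjusted p = 0.13) in L3mbtl2-/- and 0.08 ± 0.33 (adjusted p = 0.91) in Pcgf6-/- cells. These standard errors carry the wide spread of the Mga-/- group into every comparison, since 1 spread per gene was shared by the 4 groups. With only the L3mbtl2-/- and wild type libraries fitted, the same 0.69 had a limma adjusted p of 4.5e-05, in a fit that called 67.3% of all tested genes. Without the library labelled Mga knockout replicate 1 its adjusted p was 0.016, and without replicate 2 it was 0.013 (52.6% and 54.2% called). In 15 of 19 alternatives the L3mbtl2-/- value did not pass, with limma adjusted p of up to 0.31. In the Mga-/- comparison, leaving out replicate 1 gave -0.89 (adjusted p = 0.0065) and leaving out replicate 2 gave -0.15 (adjusted p = 0.52), so the size of that difference rested on which library was kept.

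Mycl, the remaining MYC gene, was at 2.84, 8.0 and 8.71 FPKM in Mga-/- libraries, at 3.32 and 3.45 FPKM in L3mbtl2-/- libraries and at 7.41 and 7.51 FPKM in Pcgf6-/- libraries, against 5.84, 6.39 and 6.93 FPKM in wild type. Both L3mbtl2-/- libraries were below wild type, and Mga-/- replicate 1 was with them, while Mga-/- replicates 2 and 3 were above wild type. None of the comparisons passed, with log2 fold changes of -0.12 ± 0.36 (limma adjusted p = 0.81) in Mga-/-, -0.89 ± 0.40 (adjusted p = 0.11) in L3mbtl2-/- and 0.22 ± 0.40 (adjusted p = 0.78) in Pcgf6-/- cells. Replicate 1 decided the Mga-/- value: without it the log2 fold change was 0.38 (adjusted p = 0.012), with the opposite sign. Without that library the L3mbtl2-/- comparison had an adjusted p of 0.00023, and with only L3mbtl2-/- and wild type libraries fitted it had 0.00068. Those fits called 52.6% and 67.3% of all tested genes. In 16 of 19 alternatives the L3mbtl2-/- value of Mycl did not pass, with limma adjusted p of up to 0.29.

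Summed over the 3 genes, the MYC level was 82.0, 68.8 and 72.1 FPKM in Mga-/- libraries, 71.2 and 71.7 FPKM in L3mbtl2-/- libraries and 78.3 and 77.4 FPKM in Pcgf6-/- libraries, against 115.6, 116.1 and 120.2 FPKM in wild type. All knockout sums were below wild type, and those of L3mbtl2-/- and Pcgf6-/- libraries lay within the Mga-/- range, but their make-up differed. Mycn was 56.8, 71.6 and 60.9% of the sum in Mga-/- libraries, 31.8 and 32.7% in L3mbtl2-/- libraries and 52.4 and 52.5% in Pcgf6-/- libraries, against 70.6 to 70.9% in wild type. Myc exceeded Mycn in the L3mbtl2-/- libraries alone, where the ratio of Mycn to Myc was 0.50 and 0.52. In the other libraries this ratio was between 1.38 and 4.27, and in wild type between 2.90 and 3.03. These sums and ratios are a description, with no test.

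**Figure D3:**
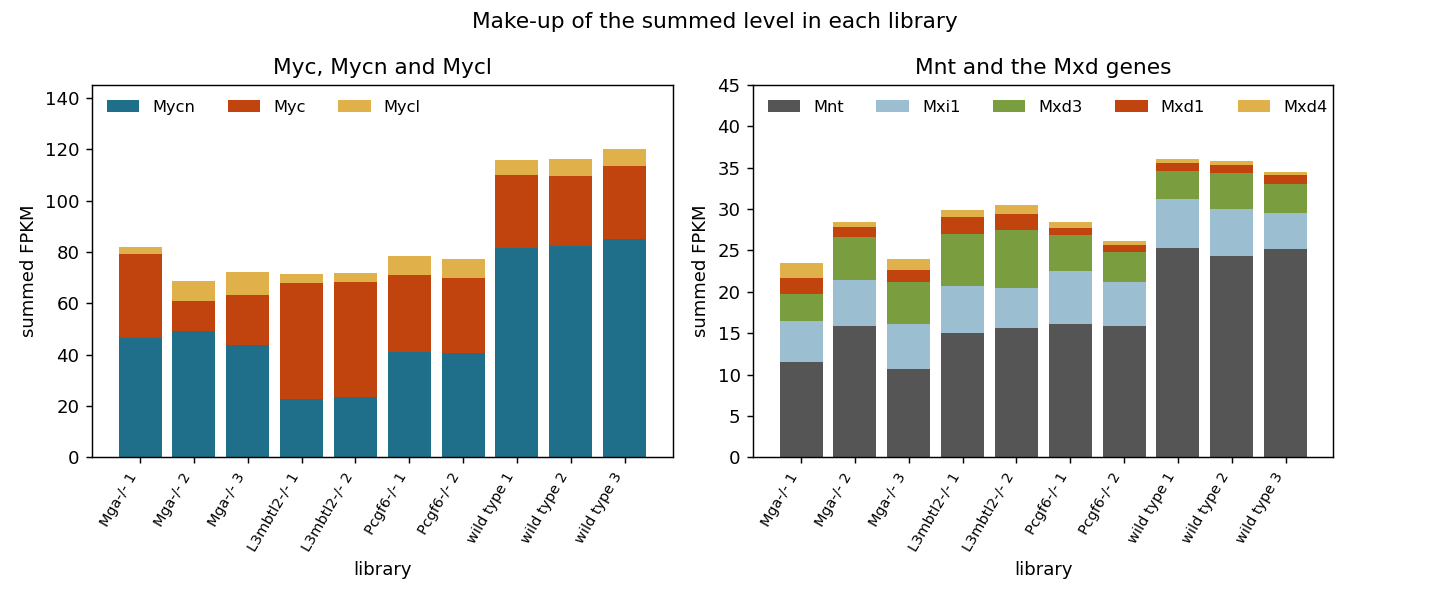
Summed FPKM in each library of Myc, Mycn and Mycl (left) and of Mnt, Mxi1, Mxd3, Mxd1 and Mxd4 (right), as stacked bars from 0, knockouts left of wild type. The MYC sums were 68.8 to 82.0 FPKM in knockout libraries and 115.6 to 120.2 FPKM in wild type, and Mnt made up a smaller share of the right-hand bars in knockouts.

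Mnt, the repressor that pairs with MAX in most tissues, fell in all 3 knockouts. It was at 11.5, 15.8 and 10.7 FPKM in Mga-/- libraries, at 15.0 and 15.6 FPKM in L3mbtl2-/- libraries and at 16.1 and 15.9 FPKM in Pcgf6-/- libraries, against 25.3, 24.4 and 25.1 FPKM in wild type. Every knockout library was below every wild type library, and the group means were 50.8%, 61.5% and 64.2% of wild type. The log2 fold change was -0.99 ± 0.13 (SE, limma adjusted p = 0.00087) in Mga-/-, -0.70 ± 0.15 (adjusted p = 0.0069) in L3mbtl2-/- and -0.64 ± 0.15 (adjusted p = 0.032) in Pcgf6-/- cells. The Mga-/- call was kept without any 1 library, with an adjusted p of at most 0.0058. The L3mbtl2-/- call was lost only without L3mbtl2-/- replicate 1 (adjusted p = 0.057). The Pcgf6-/- call was lost without any 1 of 7 libraries, those of wild type, L3mbtl2-/- and Pcgf6-/-, with adjusted p of 0.063 to 0.20, although its log2 fold change stayed between -0.65 and -0.62. It was also lost with no filter (limma adjusted p = 0.052).

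Promoters of Mycn and Mnt are shown because these 2 genes were called in every comparison with wild type, and that of Mxd3 because it alone among the family held the searched E2F letters. They are RefSeq sequences of build GRCm38.p6, from 250 bases before to 50 bases after the annotated start, in the direction of transcription, and 9 of the 10 genes matched the table, Myc being the other. The letters searched were CACGTG (the E-box of MYC and MAX dimers, the same on both strands), GCGGGAA (an E2F motif) and AGGTGTGA (a T-box motif), the last 2 on both strands, and capitals mark a match. The Mycn window is chr12:12941787-12942086 on the minus strand and held none of the 3, the Mnt window is chr11:74830674-74830973 on the plus strand with an E-box, and the Mxd3 window is chr13:55329682-55329981 on the minus strand with an E2F motif.
Mycn: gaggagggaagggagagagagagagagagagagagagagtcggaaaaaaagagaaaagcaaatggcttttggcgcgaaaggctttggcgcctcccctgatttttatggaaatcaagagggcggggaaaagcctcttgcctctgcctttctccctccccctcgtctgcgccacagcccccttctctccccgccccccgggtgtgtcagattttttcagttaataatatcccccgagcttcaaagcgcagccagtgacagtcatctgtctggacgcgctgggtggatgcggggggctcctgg
Mnt: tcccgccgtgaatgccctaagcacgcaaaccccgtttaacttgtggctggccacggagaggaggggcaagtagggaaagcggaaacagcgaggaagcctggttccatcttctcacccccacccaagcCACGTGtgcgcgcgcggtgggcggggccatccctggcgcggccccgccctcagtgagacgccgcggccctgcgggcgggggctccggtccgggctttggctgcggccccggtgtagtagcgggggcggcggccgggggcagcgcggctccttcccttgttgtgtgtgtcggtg
Mxd3: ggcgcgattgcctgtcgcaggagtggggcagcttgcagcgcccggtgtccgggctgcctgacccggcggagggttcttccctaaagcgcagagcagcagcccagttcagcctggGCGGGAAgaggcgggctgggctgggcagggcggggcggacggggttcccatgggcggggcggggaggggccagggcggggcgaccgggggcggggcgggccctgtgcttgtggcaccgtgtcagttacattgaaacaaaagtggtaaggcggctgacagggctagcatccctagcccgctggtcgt
Counted from the annotated start, the E-box of Mnt begins at -123 and the E2F letters of Mxd3 begin at -136. Mlx and Mxd4 also held an E-box, at -40 and -219, as did Max at -3, and the windows of Mycl, Mxd1, Mxi1 (3 entries) and Mlxip held none of the 3 motifs. Of 32851 promoters of the same length in the table, 7.15% held CACGTG, 4.6% the E2F letters and 1.28% the T-box letters. Of the genes with an E-box, Mnt fell in the 3 knockouts and Mlx in 1, while Mxd4 rose in 1 and Max in none. A match of letters is a description of these windows, not a measured binding site. Other forms of these motifs were not searched, so a window without a match may still hold one.

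Mxd1, an MXD gene linked to the exit from cell division, was low in all libraries and higher in 2 of the knockouts. It was at 1.95, 1.19 and 1.48 FPKM in Mga-/- libraries, at 2.00 and 2.01 FPKM in L3mbtl2-/- libraries and at 0.889 and 0.876 FPKM in Pcgf6-/- libraries, against 0.976, 0.936 and 0.983 FPKM in wild type. Mga-/- and L3mbtl2-/- libraries were all above wild type, and both Pcgf6-/- libraries were slightly below. The log2 fold change was 0.60 ± 0.19 (limma adjusted p = 0.035) in Mga-/-, 0.98 ± 0.21 (adjusted p = 0.0070) in L3mbtl2-/- and -0.12 ± 0.21 (adjusted p = 0.79) in Pcgf6-/- cells. The Mga-/- call was lost without any 1 library other than Mga-/- replicates 1 and 2, with adjusted p of 0.057 to 0.10. It was also lost with median-of-ratios scaling (limma adjusted p = 0.052), no filter (0.065), library weights per group (0.11) and only the 2 groups fitted (0.10). The L3mbtl2-/- call was lost without L3mbtl2-/- replicate 1 or 2, with adjusted p of 0.053 and 0.054 at nearly the same log2 fold change. Summed over 12 macrophage markers, a cell type in which Mxd1 is also known, the level was 29.1, 32.9 and 9.87 FPKM in Mga-/- libraries with 1 to 3 markers at 0, 457.4 and 443.5 FPKM in L3mbtl2-/- libraries and 208.6 and 211.7 FPKM in Pcgf6-/- libraries, against 160.4 to 166.7 FPKM in wild type. The macrophage markers were thus lower than wild type in Mga-/- and higher in L3mbtl2-/- libraries, while Mxd1 was above wild type in both, and their part in the Mxd1 values was not tested.

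Mxd3, an MXD gene known from dividing cells, rose in L3mbtl2-/- cells. It was at 3.24, 5.26 and 5.10 FPKM in Mga-/- libraries, at 6.37 and 6.93 FPKM in L3mbtl2-/- libraries and at 4.28 and 3.62 FPKM in Pcgf6-/- libraries, against 3.34, 4.33 and 3.59 FPKM in wild type. Only the L3mbtl2-/- libraries were clear of the wild type range on the same side, with a log2 fold change of 0.82 ± 0.22 (limma adjusted p = 0.018). The call was lost without wild type replicate 1 or 3 or without L3mbtl2-/- replicate 1 or 2, with adjusted p of 0.054 to 0.11. In Mga-/- libraries the value was 0.24 ± 0.19 (adjusted p = 0.35), and 0.46 (adjusted p = 0.024) without Mga-/- replicate 1, the only one of the 3 below wild type. In Pcgf6-/- cells it was 0.08 ± 0.22 (adjusted p = 0.88). Mxd3 shares 105 exon bases with Prelid1 on the other strand, a gene at 213 to 320 FPKM, and because the kit does not mark strand their reads there cannot be told apart. Prelid1 was lower in L3mbtl2-/- libraries, at a log2 fold change of -0.44 ± 0.12 (limma adjusted p = 0.019), and its part in the Mxd3 values was not tested.

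Mxd4, the least abundant of the family, rose in Mga-/- libraries, though not evenly. It was at 1.78, 0.618 and 1.25 FPKM in Mga-/- libraries, at 0.874 and 1.06 FPKM in L3mbtl2-/- libraries and at 0.761 and 0.487 FPKM in Pcgf6-/- libraries, against 0.454, 0.476 and 0.456 FPKM in wild type. All 7 knockout libraries were above all 3 wild type libraries. The 3 wild type values were under the 0.5 FPKM of the filter, so Mxd4 passed it only through knockout libraries. Lying above wild type was therefore partly built into its being tested, so its separation and its limma values below are a description. The log2 fold change was 1.12 ± 0.35 (limma adjusted p = 0.032) in Mga-/-, 0.92 ± 0.39 (adjusted p = 0.088) in L3mbtl2-/- and 0.34 ± 0.39 (adjusted p = 0.64) in Pcgf6-/- cells. The Mga-/- value was 0.81 (adjusted p = 0.067) without Mga-/- replicate 1, the library with the high fibroblast markers, and 1.51 (adjusted p = 0.0013) without replicate 2. The call was also lost without Mga-/- replicate 3, any wild type library or either L3mbtl2-/- library, with adjusted p of 0.051 to 0.084. It was lost as well with only Mga-/- and wild type libraries fitted (0.075), with library weights per group (0.12) and with no filter (0.059). With only L3mbtl2-/- and wild type libraries fitted, the L3mbtl2-/- value had an adjusted p of 0.0033, and it was 0.039 and 0.013 without Mga-/- replicates 1 and 2. In 15 of 19 alternatives the L3mbtl2-/- value of Mxd4 did not pass, with limma adjusted p of up to 0.31.

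Mxi1, the remaining MXD gene, had the narrowest range of group means of the 10, at 0.14 on the log2 scale. It averaged 5.32 ± 0.30 FPKM in Mga-/- (SD, n = 3), 5.26 ± 0.52 FPKM in L3mbtl2-/- (SD, n = 2) and 5.84 ± 0.85 FPKM in Pcgf6-/- libraries (SD, n = 2), against 5.32 ± 0.85 FPKM in wild type (SD, n = 3). No group stood clear of wild type, and the log2 fold changes were 0.01 ± 0.14, -0.01 ± 0.16 and 0.14 ± 0.16 in the order of the knockouts given.

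Within the sum of Mnt and the 4 MXD genes, Mnt was 49.1, 55.7 and 44.5% in Mga-/- libraries, 50.3 and 51.2% in L3mbtl2-/- libraries and 56.6 and 60.9% in Pcgf6-/- libraries, against 68.1 to 72.8% in wild type. The sum without Mnt was 11.9 to 13.3 FPKM in Mga-/- libraries, 14.9 FPKM in both L3mbtl2-/- libraries and 10.2 to 12.4 FPKM in Pcgf6-/- libraries, against 9.39 to 11.4 FPKM in wild type. The MYC sum divided by the sum of Mnt and the MXD genes was 2.42 to 3.50 in Mga-/-, 2.35 and 2.38 in L3mbtl2-/- and 2.75 and 2.96 in Pcgf6-/- libraries, against 3.21 to 3.48 in wild type. Activator and repressor genes were thus both lower in sum. All L3mbtl2-/- and Pcgf6-/- ratios and those of Mga-/- replicates 2 and 3 lay below the wild type range, and that of Mga-/- replicate 1 lay just above it.

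Mlx, the shared partner of the glucose-responsive branch, fell in Mga-/- libraries. It was at 20.8, 24.2 and 20.2 FPKM in Mga-/- libraries, at 29.9 and 29.0 FPKM in L3mbtl2-/- libraries and at 33.5 and 35.0 FPKM in Pcgf6-/- libraries, against 30.4, 31.2 and 29.4 FPKM in wild type. Mga-/- libraries were below and Pcgf6-/- libraries above the wild type range, and L3mbtl2-/- libraries overlapped with it. Its log2 fold change was -0.48 ± 0.08 (limma adjusted p = 0.0023) in Mga-/-, -0.04 ± 0.09 (adjusted p = 0.74) in L3mbtl2-/- and 0.17 ± 0.09 (adjusted p = 0.27) in Pcgf6-/- cells. The Mga-/- call was kept without any 1 library. The Pcgf6-/- value passed without Mga-/- replicate 2 (adjusted p = 0.0497) and with only 2 groups fitted (adjusted p = 0.020). In 16 of 19 alternatives that value did not pass, with limma adjusted p of up to 0.66. Mlx shares 385 exon bases with Psmc3ip on the other strand, so reads there cannot be told apart. Psmc3ip was lower in Mga-/- libraries, at -0.44 ± 0.08 (limma adjusted p = 0.0032), and higher in L3mbtl2-/- libraries, at 0.57 ± 0.09 (adjusted p = 0.0016). Its part in the Mlx values was not tested.

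Mlxip, which encodes MondoA, rose slightly in Mga-/- libraries. It was at 8.12, 8.62 and 9.04 FPKM in Mga-/- libraries, at 8.25 and 8.16 FPKM in L3mbtl2-/- libraries and at 6.79 and 6.85 FPKM in Pcgf6-/- libraries, against 7.62, 7.08 and 6.62 FPKM in wild type. Mga-/- and L3mbtl2-/- libraries were above wild type and Pcgf6-/- libraries were within its range. Its log2 fold change was 0.27 ± 0.09 (limma adjusted p = 0.037) in Mga-/-, 0.21 ± 0.10 (adjusted p = 0.12) in L3mbtl2-/- and -0.06 ± 0.10 (adjusted p = 0.77) in Pcgf6-/- cells. The Mga-/- call was lost without any 1 of 7 libraries, namely wild type 2 and 3, Mga-/- 3 and both of L3mbtl2-/- and Pcgf6-/-, with adjusted p of 0.065 to 0.14. Median-of-ratios scaling (limma adjusted p = 0.15), upper-quartile scaling (0.083), library weights per group (0.21) and a fit of only the 2 groups (0.11) also ended it. The ratio of Mlx to Mlxip was 2.56, 2.81 and 2.24 in Mga-/- libraries, 3.62 and 3.55 in L3mbtl2-/- libraries and 4.93 and 5.11 in Pcgf6-/- libraries, against 3.99, 4.41 and 4.45 in wild type, so that the Mga-/- and Pcgf6-/- libraries lay on opposite sides of wild type.

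Of the partners outside the 10 genes, Max, Mga and Mlxipl, 0 were called by limma against wild type in any knockout, and 1 had an unadjusted p under 0.05 in each: Mga in Mga-/-, Mlxipl in L3mbtl2-/- and Mlxipl in Pcgf6-/- cells. Max, the partner of all MYC and MXD proteins, was at 87.8, 55.7 and 55.1 FPKM in Mga-/- libraries, at 58.1 and 57.6 FPKM in L3mbtl2-/- libraries and at 55.4 and 56.9 FPKM in Pcgf6-/- libraries, against 49.5, 52.6 and 51.4 FPKM in wild type. Mga-/- replicate 1 stood alone at the top, and the log2 fold change of the whole group was 0.34 ± 0.16 (limma adjusted p = 0.13). Mlxipl, the carbohydrate-responsive relative of Mlxip, was at 2.09 and 2.00 FPKM in Pcgf6-/- libraries, against 1.25, 1.21 and 1.0 FPKM in wild type, 0.78 ± 0.22 on the log2 scale (limma adjusted p = 0.055), which limma-voom on the recovered reads called. Max divided by the MYC sum was 0.71 to 1.07 in knockout libraries, against 0.43 to 0.45 in wild type.

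The median over all tested genes of a chromosome also shifted in some libraries, and these shifts touch several of the calls. On chromosome 11, which holds Mnt and Mlx, the median of 1352 tested genes differed from the wild type mean by -0.11, -0.36 and -0.24 (log2) in Mga-/- libraries, by 0.10 and 0.13 in L3mbtl2-/- libraries and by -0.31 and -0.30 in Pcgf6-/- libraries, against -0.01 to 0.01 in wild type. In Mga-/- replicate 1 the medians of chromosome 12, with Mycn and Max, and of chromosome 6, with Mxd1, were 0.52 and 0.53. Their part in the results was not tested beyond an alternative, chosen after seeing the data, in which each chromosome was centred in each library. With that centring Mycn stayed called, at -1.10 in Mga-/-, -2.04 in L3mbtl2-/- and -1.06 in Pcgf6-/- cells, with limma adjusted p of at most 0.0032. Mnt stayed called at -0.75 in Mga-/- (adjusted p = 0.0090) and -0.81 in L3mbtl2-/- cells (adjusted p = 0.011), but not in Pcgf6-/- cells, at -0.33 (adjusted p = 0.33). Mlx in Mga-/- cells was -0.24 (adjusted p = 0.12) with it, Mxd1 0.32 (adjusted p = 0.099) and Mlxip 0.15 (adjusted p = 0.17), and Mxd3 in L3mbtl2-/- cells was 0.61 (adjusted p = 0.052). Mxd4 in Mga-/- cells stayed called at 0.998 (adjusted p = 0.048), and Mxd1 in L3mbtl2-/- cells at 0.76 (adjusted p = 0.0057). Other values grew: Mlx in Pcgf6-/- cells was 0.48 (adjusted p = 0.0501). For L3mbtl2-/- over Pcgf6-/-, Mlx went from -0.22, not called, to -0.64 (limma adjusted p = 0.012).

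**Figure D4:**
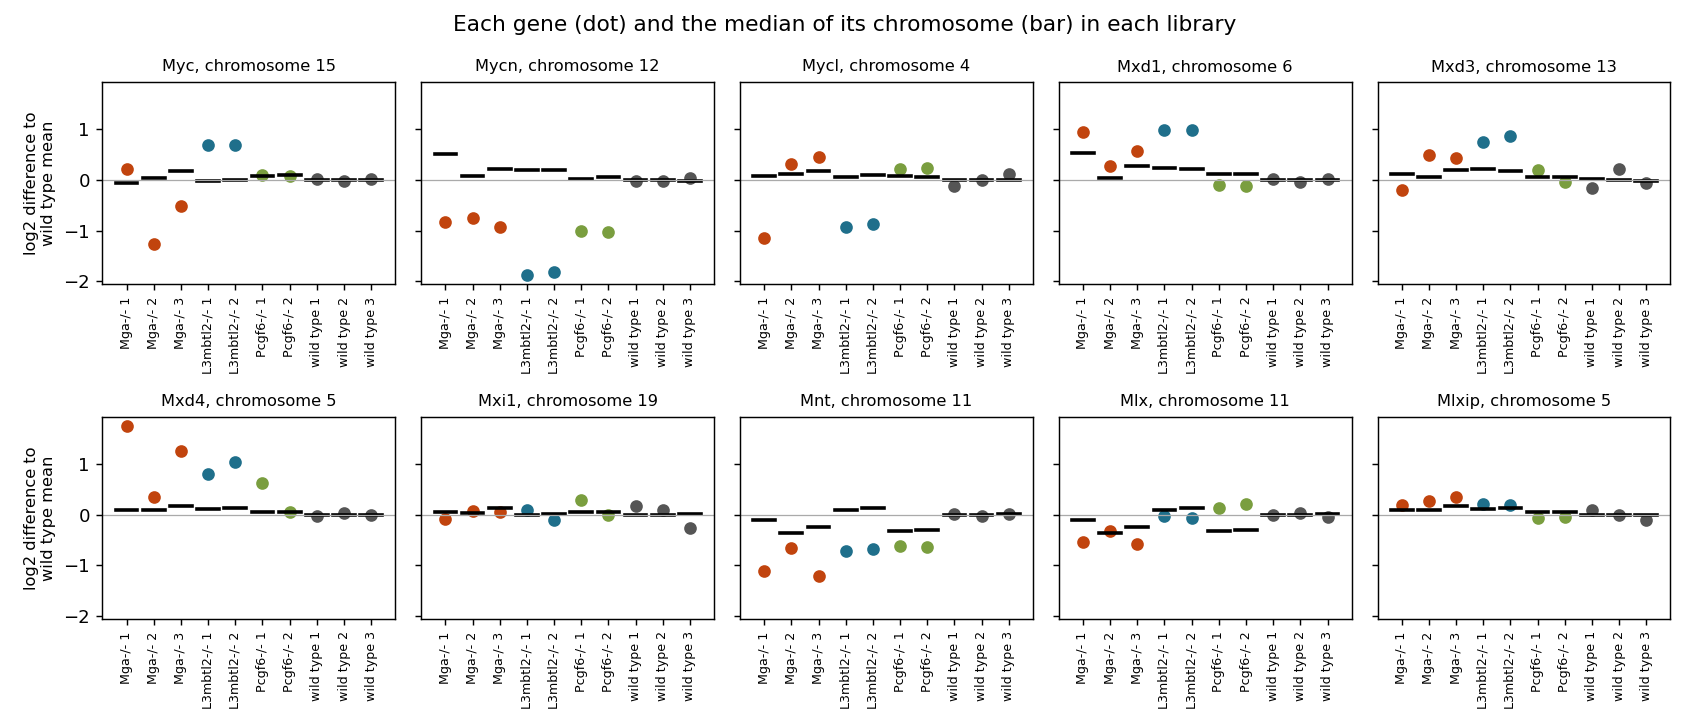
Log2 difference of each family gene (dot) and of the median tested gene of its chromosome (bar) to the wild type mean, in each library, knockouts left of wild type. For Mycn the dots lie far below the bars in all 7 knockout libraries, whereas the bars of chromosome 11 lie at -0.11 to -0.36 in Mga-/- and Pcgf6-/- libraries, part of the way to the dots of Mnt.

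Between knockouts, 3 of the 10 genes were called for Mga-/- over L3mbtl2-/- (22.8% of all tested genes), 3 for Mga-/- over Pcgf6-/- (22.6%) and 3 for L3mbtl2-/- over Pcgf6-/- (30.5%). Mycn gave the order L3mbtl2-/-, Pcgf6-/-, Mga-/- and wild type from low to high. Its log2 fold change was 1.01 ± 0.07 (limma adjusted p = 6.1e-05) for Mga-/- over L3mbtl2-/- and -0.82 ± 0.08 (adjusted p = 0.00042) for L3mbtl2-/- over Pcgf6-/-, and both calls were kept without any 1 library. The neighbours Mga-/- and Pcgf6-/- did not differ past the threshold, at 0.19 ± 0.07 (adjusted p = 0.090). Myc was lower in Mga-/- than in L3mbtl2-/- libraries, at -1.21 ± 0.33 (adjusted p = 0.032), a call lost without any 1 library other than Mga-/- replicates 1 and 2 (adjusted p 0.055 to 0.16) and with no filter or only the 2 groups fitted (0.054 and 0.18).

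Mlx was lower in Mga-/- than in the other 2 knockouts, at -0.44 ± 0.09 against L3mbtl2-/- (limma adjusted p = 0.0097) and -0.66 ± 0.09 against Pcgf6-/- (adjusted p = 0.0023). The difference from L3mbtl2-/- was lost without either L3mbtl2-/- library (adjusted p 0.067 and 0.089), and with chromosome centring it was -0.09 (adjusted p = 0.65). The difference from Pcgf6-/- was kept without any 1 library, and with that centring it was -0.73 (adjusted p = 0.0056). With only the 2 groups compared in each fit, both differences missed the threshold, with limma adjusted p of 0.13 against L3mbtl2-/- and 0.083 against Pcgf6-/- cells. Mxd1 was higher in L3mbtl2-/- than in Pcgf6-/- libraries at 1.10 ± 0.23 (adjusted p = 0.0094), which was lost without any 1 of their 4 libraries (adjusted p 0.057 to 0.062). Mxd1 was also higher in Mga-/- than in Pcgf6-/- libraries at 0.71 ± 0.21 (adjusted p = 0.042), and Mlxip at 0.33 ± 0.10 (adjusted p = 0.043), both lost without any 1 library other than Mga-/- replicates 1 and 2, with adjusted p of 0.062 to 0.20. Neither passed with no filter, library weights or only the 2 groups fitted (limma adjusted p of 0.057 to 0.25), and Mlxip also missed the threshold with either other scaling (0.071 and 0.075) and with chromosomes centred (0.057). Mxd3 was higher in L3mbtl2-/- than in Pcgf6-/- libraries at 0.74 ± 0.24 (adjusted p = 0.046), lost without any 1 library of these 2 groups or of wild type (adjusted p 0.061 to 0.21). It was also lost with no filter, either other scaling, chromosomes centred or limma-voom (adjusted p 0.054 to 0.090).

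Over the 10 libraries of 4 genotypes, the genes most like each MYC gene were found by Pearson's r on the log2 scale among 12259 tested genes with a mean of at least 1 FPKM. These values describe how group levels line up and carry no p, since all points share genotypes and libraries. For Mycn they were Naaa (r = 0.993), Zfat (0.988) and Mgat4b (0.988), and Naaa averaged 2.50 FPKM in Mga-/-, 0.828 FPKM in L3mbtl2-/- and 2.42 FPKM in Pcgf6-/- libraries, against 6.14 FPKM in wild type. For Myc they were Serpinb6a (0.985), Ankrd1 (0.979) and Abca1 (0.977), all with their highest mean in L3mbtl2-/- libraries. For Mycl they were Paqr6 (0.981), Mmp17 (0.977) and Dennd1c (0.976), all with their lowest mean there.

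Of 20 known MYC activated targets, 0 rose and 9 fell in Mga-/- libraries (0 and 10 at an unadjusted limma p under 0.05, and 0 and 9 by limma-voom), where 22.8% of all tested genes rose and 16.7% fell. In L3mbtl2-/- libraries 3 rose and 4 fell, near the 23.4% and 16.7% of all tested genes. In Pcgf6-/- libraries 0 rose and 1 fell (5 and 1 unadjusted, 0 and 1 by limma-voom), near the 5.45% and 4.62% of all tested genes. The counts of the lists below stand beside these same shares where they come from the fit reported above. Limma-voom called 40.0%, 40.3% and 9.85% of all tested genes, in either direction, in Mga-/-, L3mbtl2-/- and Pcgf6-/- cells. Counts at an unadjusted p have no such share beside them and are a description. The median log2 fold change of the 20 was -0.17, -0.06 and 0.07 in that order, and that of all tested genes was 0.10, 0.13 and 0.04. Rcc1, the exchange factor of the Ran GTPase, fell in Mga-/- cells at -0.69 ± 0.07 (limma adjusted p = 0.00019). Npm1, a nucleolar chaperone, fell there at -0.82 ± 0.08 (adjusted p = 0.00021), and Pa2g4, a growth regulator, at -0.34 ± 0.06 (adjusted p = 0.0034). In L3mbtl2-/- cells Rcc1 fell as well, at -0.58 ± 0.08 (adjusted p = 0.00079), and Ldha, a lactate dehydrogenase, fell at -1.17 ± 0.18 (adjusted p = 0.0014), but Ncl, which encodes nucleolin, rose at 0.68 ± 0.09 (adjusted p = 0.00086). Npm1 was the 1 fall in Pcgf6-/- cells, at -0.52 ± 0.09 (adjusted p = 0.011), and like Mnt and Mlx it lies on chromosome 11: with chromosomes centred 0 of the 20 fell there and 1 rose, and in L3mbtl2-/- cells 0 rose and 5 fell. With that centring 9.38% of all tested genes were called in Pcgf6-/- and 39.3% in L3mbtl2-/- cells, in either direction. The Pcgf6-/- count was 5 higher and 2 lower without Mga-/- replicate 1 and 4 and 1 without replicate 2, which change only the shared estimate of spread there. In those fits 22.7% and 25.2% of all tested genes were called in Pcgf6-/- cells, in either direction.

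Among 7 MYC repressed targets, Cdkn1a, the cell cycle inhibitor p21, rose in Mga-/- libraries at 0.78 ± 0.15 (limma adjusted p = 0.0048) and Ndrg2 fell at -1.55 ± 0.43 (adjusted p = 0.021). Without Mga-/- replicate 1 the count was 1 rise and 0 falls, while 44.8% of all tested genes were called in either direction. In L3mbtl2-/- libraries 3 of the 7 fell, Ndrg1 at -2.13 ± 0.38, Ndrg2 at -2.08 ± 0.48 and Cdkn1b, the inhibitor p27, at -0.93 ± 0.28 (highest adjusted p = 0.027). In Pcgf6-/- libraries 0 of the 7 were called by limma, with 1 rise at an unadjusted p under 0.05 and 0 by limma-voom.

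Targets of MLX and MLXIP moved in both directions, with 2 of 7 tested genes higher and 2 lower in Mga-/- libraries, 1 higher and 2 lower in L3mbtl2-/- libraries and 1 lower in Pcgf6-/- libraries. Arrdc4, an arrestin family gene activated by MLXIP, rose at 0.88 ± 0.24 (limma adjusted p = 0.020) in Mga-/- and 1.45 ± 0.27 (adjusted p = 0.0037) in L3mbtl2-/- cells. Its relative Txnip, the target MLXIP is best known for, was named after its values were seen, and it rose in Mga-/- libraries at 1.34 ± 0.38 (adjusted p = 0.022). The lipid synthesis genes went the other way: Fasn fell at -1.43 ± 0.16 (adjusted p = 0.00033) in Mga-/- and -0.70 ± 0.18 (adjusted p = 0.014) in L3mbtl2-/- cells. Acaca, the enzyme of the first step of that pathway, fell at -0.83 ± 0.12, -0.67 ± 0.13 and -0.60 ± 0.13 in Mga-/-, L3mbtl2-/- and Pcgf6-/- cells (highest adjusted p = 0.024). Fasn and Acaca also lie on chromosome 11, and with chromosomes centred 0 of the list were called in Pcgf6-/- cells (9.38% of all tested genes). Without Mga-/- replicate 1 the Mga-/- count was 1 higher and 3 lower, while 44.8% of all tested genes were called in either direction.

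The SIN3 and histone deacetylase corepressor had 5 of 15 genes higher and 1 lower in Mga-/-, 5 higher and 0 lower in L3mbtl2-/- (5 and 1 unadjusted, 5 and 0 by limma-voom) and 1 higher and 0 lower in Pcgf6-/- libraries (1 and 1 unadjusted, 1 and 0 by limma-voom). Of all tested genes 22.8%, 23.4% and 5.45% rose in that order, so with 15 genes the counts of rises were close to the background. Hdac2, a deacetylase, rose at 0.58 ± 0.12, 0.99 ± 0.14 and 0.60 ± 0.14 in Mga-/-, L3mbtl2-/- and Pcgf6-/- cells (highest limma adjusted p = 0.030). Sap18, a subunit of the complex, rose at 0.87 ± 0.17 in Mga-/- and 0.79 ± 0.19 in L3mbtl2-/- cells, and Arid4a, another subunit, at 0.38 ± 0.13 and 0.87 ± 0.14 (highest adjusted p = 0.042). Sin3b, a scaffold of the complex, rose at 0.42 ± 0.11 in Mga-/- cells and the subunit gene Sap30 at 0.79 ± 0.19 in L3mbtl2-/- cells (highest adjusted p = 0.018). The Mga-/- count turned to 3 higher and 4 lower with chromosomes centred, and to 8 and 3 without Mga-/- replicate 1. In these fits 38.4% and 44.8% of all tested genes were called in either direction. Of 16 MYC cofactors and stability factors, 5 rose and 2 fell in Mga-/-, 2 rose and 6 fell in L3mbtl2-/- and 1 rose and 1 fell in Pcgf6-/- libraries, while 16.7%, 16.7% and 4.62% of all tested genes fell in that order. Wdr5, which helps MYC bind chromatin, rose at 0.95 ± 0.13, 0.46 ± 0.15 and 0.59 ± 0.15 in the same order (highest adjusted p = 0.038). Kat5, an acetyltransferase recruited by MYC, fell at -1.35 ± 0.28 in L3mbtl2-/- cells (adjusted p = 0.0062), and Bptf, a chromatin remodelling subunit on chromosome 11, fell at -0.67 ± 0.08 in Mga-/- and -0.74 ± 0.09 in Pcgf6-/- cells (highest adjusted p = 0.0022). Fbxw7, the ubiquitin ligase subunit that marks MYC for destruction, rose at 0.57 ± 0.13 in Mga-/- and 0.58 ± 0.15 in L3mbtl2-/- cells (highest adjusted p = 0.013). Ep400, a remodelling ATPase, rose at 0.48 ± 0.10 in Mga-/- cells (adjusted p = 0.0077), and Smarcb1, a SWI/SNF subunit, fell at -0.53 ± 0.10 in L3mbtl2-/- cells (adjusted p = 0.0035). The Mga-/- count of the cofactors was 5 higher and 8 lower without Mga-/- replicate 2, and in Pcgf6-/- cells it was 4 and 2 without replicate 1. In these fits 55.1% and 22.7% of all tested genes were called in either direction, more than in the fit reported above.

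Upstream of Myc in stem cells, in the LIF and WNT pathways, 4 of 14 genes rose and 2 fell in Mga-/-, 4 rose and 1 fell in L3mbtl2-/- and 4 rose and 3 fell in Pcgf6-/- libraries, where 5.45% of all tested genes rose and 4.62% fell. Lef1, a transcription factor of the WNT pathway, rose at 2.18 ± 0.25, 3.33 ± 0.28 and 1.96 ± 0.28 in that order. It was at 0.204 to 0.281 FPKM in wild type, so like Mxd4 it passed the filter only through knockout libraries. Its rises, which are part of the counts above, were therefore partly built into its being tested and are a description. Axin2, a WNT target, rose at 1.74 ± 0.12, 1.33 ± 0.13 and 1.08 ± 0.13 (highest limma adjusted p of the 2 genes = 0.0053). Stat3, which carries the LIF signal, rose at 0.34 ± 0.07, 0.60 ± 0.08 and 0.69 ± 0.08 (highest adjusted p = 0.0064). Tcf7, a relative of Lef1 that lies on chromosome 11 like Axin2 and Stat3, fell at -0.55 ± 0.07 in Mga-/- and -0.51 ± 0.08 in Pcgf6-/- cells (highest adjusted p = 0.0081). Tcf7l1, on chromosome 6 and named after its values were seen, fell at -1.21 ± 0.21 in Mga-/- cells (limma adjusted p = 0.0027). In L3mbtl2-/- cells it fell at -0.92 ± 0.23 (adjusted p = 0.015). It averaged 18.4 FPKM in Pcgf6-/- libraries, against 35.9 FPKM in wild type. Summed over 10 stem cell markers the level was 1741 to 2028 FPKM in Mga-/-, 1931 and 1948 FPKM in L3mbtl2-/- and 1611 and 1639 FPKM in Pcgf6-/- libraries, against 1118 to 1210 FPKM in wild type. By limma 7, 6 and 5 of the 10 markers rose in that order and 1 fell in each knockout. The fall in Mga-/- and in L3mbtl2-/- cells was that of Dppa4. The part of these markers in any of the changes above was not tested.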

How the data were processed

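The series holds 10 RNA libraries of mouse embryonic stem cells, grouped here by their titles. Per the labels' protocols, cells were lysed in Trizol and a NEBNext Ultra kit was used, which does not mark strand. The files hold FPKM for each gene as deposited by the authors, and per the submitters' processing notes Bowtie2 2.2.3, TopHat2 2.0.12, HTSeq 0.6.0 and GRCm38 were involved. The sources used here give neither the scaling nor the handling of overlapping genes. Symbols came from GENCODE M21 for 30221 of the 30460 identifiers. The values moved in steps of 1 read: of 28713 genes above 0, 78.2% came out whole at the M21 exon length, with a tolerance of 0.02 reads, and 21.6% at a length found from the values. These reads gave the depth, and without molecular identifiers they may hold copies of 1 molecule.

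With FPKM values a count model was not the main test. Log2(FPKM + 0.1) of 15731 genes that reached 0.5 FPKM in 2 or more libraries was fitted with limma 3.58.1 (R 4.3.3). All 10 libraries entered 1 fit, with genotype as the only term and a mean trend in the prior. Fold changes of genes near 0 are understated by the pseudocount. Adjusted p-values were computed by the Benjamini-Hochberg method across every tested gene (threshold 0.05), and ± beside a fold change is limma's standard error. The fit was tried on simulated data with the same SD in all genes and groups. That trial did not cover unequal spreads such as that of the Mga-/- libraries. Python 3.11.15, pandas 2.3.3 and matplotlib 3.10.9 made tables and figures.

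The named genes are the 10 family genes, the 3 targeted genes, Max and Mlxipl, up to 3 called genes of each list with the smallest p in each comparison with wild type, and the 3 genes most like Myc, Mycn and Mycl. Prelid1 and Psmc3ip were named because they overlap a family gene. The family genes and the lists were chosen with earlier results of these data known. Alternatives were a pseudocount of 1, no filter, 2 other scalings, library weights per group, fits of only the 2 groups compared, a replicate block and each library left out. Chromosome centring and limma-voom on the recovered reads were chosen after seeing the data.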

Additional observations from a re-analysis of the deposited data

How the results depend on the processing

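Over 10 genes, 3 comparisons with wild type and 19 alternatives, 483 of 570 values kept their direction and their side of the threshold, 56 no longer passed, 18 newly passed and 13 changed sign. Between knockouts these numbers were 476 of 570, 60, 24 and 10. No value called in the fit reported above changed sign, and of the values after a sign change only Mycl in Mga-/- against wild type, 0.38 without Mga-/- replicate 1, passed the threshold.

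With 1 library left out, Mycl ran between -0.41 and 0.38 in Mga-/- against wild type and between -0.63 and 0.16 against Pcgf6-/-. Mxi1, at or near 0 throughout, ran between -0.12 and 0.10 in Mga-/-, -0.14 and 0.092 in L3mbtl2-/- and -0.011 and 0.28 in Pcgf6-/- against wild type. Between knockouts it ran between -0.081 and 0.12, -0.27 and 0.021, and -0.29 and 0.0037, for Mga-/- over L3mbtl2-/-, Mga-/- over Pcgf6-/- and L3mbtl2-/- over Pcgf6-/-. Mxd3 in Pcgf6-/- against wild type ran between -0.042 and 0.19, and Mxd4 in Mga-/- over L3mbtl2-/- between -0.11 and 0.59. Mxi1 in Mga-/- against wild type was also -0.087 with median-of-ratios scaling, -0.049 with upper-quartile scaling and -0.066 with chromosomes centred. That centring also gave -0.053 for Mxi1 and 0.056 for Mnt in Mga-/- over L3mbtl2-/-, and -0.038 for Mycn in Mga-/- over Pcgf6-/-.

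Counts of family genes called are given here with the share of all tested genes called under the same setting. For 1 library left out, the count and the share each have their own range, and the ends need not belong to the same fit. In Mga-/- against wild type the count was 6 (39.5%), and it was 3 with library weights (23.6%), 3 with only the 2 groups compared (25.4%), 3 with chromosomes centred (38.4%), 4 with median-of-ratios scaling (38.4%), 4 with no filter (20.4%) and 3 to 8 with 1 library left out (26.7% to 55.1%). The L3mbtl2-/- count was 4 (40.0%), and it was 8 with weights (70.6%), 8 with only the 2 groups compared (67.3%) and 1 to 7 with 1 library left out (18.7% to 54.2%). The Pcgf6-/- count was 2 (10.1%), and it was 1 with no filter (4.46%), 1 with chromosomes centred (9.38%) and 1 to 3 with 1 library left out (0.998% to 25.2%). For Mga-/- over L3mbtl2-/- it was 3 (22.8%), and it was 1 with only the 2 groups compared (3.77%) and 1 to 5 with 1 library left out (7.58% to 37.4%). For Mga-/- over Pcgf6-/- it was 3 (22.6%), and it was 1 with no filter (10.6%), 1 with weights (14.5%) and 1 to 5 with 1 library left out (5.18% to 44.5%). With only these 2 groups compared 0 were called by limma (1.26%), with 1 at an unadjusted p under 0.05, and limma-voom over all groups called 3 (22.0%). For L3mbtl2-/- over Pcgf6-/- it was 3 (30.5%), and it was 8 with weights (66.3%), 7 with only the 2 groups compared (61.5%) and 1 to 6 with 1 library left out (10.8% to 46.8%). The cause of these moves was not tested, though weights and fits of 2 groups by construction no longer give all groups 1 equal spread.

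Same-numbered libraries did not deviate together, with correlations of -0.02 to 0.03. The values thus gave no sign that the replicate numbers pair the samples, but they cannot tell how the libraries were handled. With the replicate block the counts were 4, 4 and 1 against wild type for Mga-/-, L3mbtl2-/- and Pcgf6-/- (35.8%, 34.7% and 6.31% of all tested genes), and 2, 1 and 2 between knockouts in the order above (16.0%, 15.2% and 26.1%). Against wild type, the calls of Mxd1 (adjusted p = 0.057) and Mlxip (0.074) in Mga-/- and of Mnt in Pcgf6-/- cells (0.051) were lost with it, by limma. The median of all tested genes was 0.10, 0.13 and 0.04 (log2) against wild type, and 0.01, 0.02 and 0 with median-of-ratios scaling. Groups of 2 and 3 libraries limit every test.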

Other observations

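Markers of other states of these cells were also compared between the genotypes. Trophoblast markers summed to 203.9, 71.7 and 117.6 FPKM over 10 genes in Mga-/- libraries, 36.5 and 38.2 FPKM in L3mbtl2-/- libraries and 86.4 and 87.6 FPKM in Pcgf6-/- libraries, against 380.1 to 392.9 FPKM in wild type. Of 8 tested by limma, 1 rose and 3 fell in Mga-/-, 7 fell in L3mbtl2-/- and 2 fell in Pcgf6-/- cells. Primitive endoderm markers had 3, 4 and 3 of 9 tested genes higher in Mga-/-, L3mbtl2-/- and Pcgf6-/- cells. Gata4 and Sox17 of this list were at most at 0.472 and 0.118 FPKM in wild type. They passed the filter only through knockout libraries, so rises in this list were partly built in and the counts are a description. Markers of primed epiblast and mesoderm had 3, 1 and 1 of 8 tested genes higher and 3, 5 and 1 lower in that order, and of 4 tested neural markers 1 was higher in Mga-/- cells and 1 was lower in each knockout. Of all tested genes 22.8%, 23.4% and 5.45% rose and 16.7%, 16.7% and 4.62% fell in Mga-/-, L3mbtl2-/- and Pcgf6-/- cells. With lists this short, counts near these shares say little about the markers. The part of these markers in the levels of the family genes was not tested.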
